A study of Mus musculus with 9 samples.

Results

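The transcription factors *Hlf*, *Mecom*, *Meis1*, *Prdm16*, *Erg*, *Mycn*, *Hoxa9*, *Hoxb4* and *Hoxb5*, which are known for sustaining hematopoietic stem cells (HSCs), were followed across sorted HSCs of young and pre-aged mice. They were taken by gene name and make up 9 of the 56748 genes in the count table, and all 9 passed the filter on low counts in every comparison. Bulk RNA-seq was performed on 9 libraries of bone marrow HSCs from female C57BL/6 mice, which formed 3 groups with 3 libraries each (n = 3). Young HSCs (yHSCs) came from mice of 6 to 10 weeks, whereas pre-aged HSCs (paHSCs) came from mice of 14 to 16 months and were split by surface P-selectin, encoded by *Selp*, into a Selp_low and a Selp_high fraction. All 3 groups were sorted with the SLAM surface markers, the labels name no transgene or treatment for any group, and yHSCs were not split by P-selectin. The study describes the libraries of a group as biological repeats. The labels do not tie a library to its own animal or pool of animals, and p-values measure the spread between these libraries.

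Self-renewal is cell division that leaves a daughter with the full long-term ability of the HSC to make all blood lineages. It rests on a small circuit of transcription factors. Hox homeodomain proteins bind DNA together with Meis and Pbx partners of the TALE class, the PR-domain zinc-finger proteins Mecom (Evi1) and Prdm16 act on chromatin and are needed to maintain HSCs, and the PAR bZIP factor Hlf marks HSCs and limits their cycling. Erg, an ETS factor, protects HSCs from differentiation, and Mycn, a bHLH factor of the Myc family, acts beside c-Myc in HSC growth and survival.

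Each library held between 24866975 and 35375310 gene counts. The level of a gene is given as CPM, counts scaled to the library's total, after TMM scaling, which lowers the weight of a few very abundant genes, and TMM factors were 0.560 for Selp_low replicate 2, 0.812 for Selp_low replicate 3 and between 1.07 and 1.18 for the other libraries. These 2 libraries stood apart. The 10 most abundant genes took 44.8% of the counts of Selp_low replicate 2 and 20.9% of those of Selp_low replicate 3, against 3.90% to 12.5% elsewhere. *Selp* itself was at 21.1 to 31.8 CPM in yHSCs, 28.5 to 108 CPM in Selp_low paHSCs and 259 to 662 CPM in Selp_high paHSCs; the paHSC libraries were sorted on its protein. The 8 surface markers of SLAM HSCs were above the floor of 3 counts in every library. No 2 of the 9 libraries were identical.

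Promoters are printed here so that the stretch upstream of each start can be read beside its values. They are those of members with an entry in the RefSeq table that DESeq2 called in a comparison below. Only calls with no library left out and without use of the replicate numbers were counted for this. Each window runs 250 bases before to 50 bases after the gene's start in build GRCm38.p6, on the minus strand and written 5′ to 3′, and capitals mark a match to a motif. The *Mycn* window is chr12:12941787-12942086, the *Hlf* window chr11:90390868-90391167 and the *Hoxa9* window chr6:52227321-52227620.
Mycn: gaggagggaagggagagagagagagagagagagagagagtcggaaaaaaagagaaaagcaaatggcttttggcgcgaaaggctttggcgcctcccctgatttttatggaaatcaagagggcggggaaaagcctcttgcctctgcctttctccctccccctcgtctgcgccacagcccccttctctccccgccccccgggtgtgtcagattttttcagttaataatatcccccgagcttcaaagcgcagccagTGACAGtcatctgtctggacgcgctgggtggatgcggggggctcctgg
Hlf: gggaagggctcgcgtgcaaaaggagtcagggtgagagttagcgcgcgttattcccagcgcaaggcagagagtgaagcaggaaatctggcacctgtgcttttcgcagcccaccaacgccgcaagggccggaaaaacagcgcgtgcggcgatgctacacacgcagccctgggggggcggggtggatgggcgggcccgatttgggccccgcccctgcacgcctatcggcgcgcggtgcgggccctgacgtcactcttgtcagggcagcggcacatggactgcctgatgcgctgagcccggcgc
Hoxa9: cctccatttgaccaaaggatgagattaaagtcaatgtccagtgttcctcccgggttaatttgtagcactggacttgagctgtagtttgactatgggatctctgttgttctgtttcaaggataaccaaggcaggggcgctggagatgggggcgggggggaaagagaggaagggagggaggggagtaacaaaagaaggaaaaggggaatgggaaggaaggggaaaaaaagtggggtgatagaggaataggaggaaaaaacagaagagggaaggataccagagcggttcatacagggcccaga

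Of the 9 members, 8 had 11 such windows. GC content ran from 37.3% in an *Erg* window to 67.3% in the *Hlf* window, against a median of 52.7% over 32851 windows. All were searched on both strands for 6 motifs. The E-box of Myc proteins, CACGTG, was found in 7.15% of all windows. The Meis motif, spelled TGACAG, was found in 19.2% and the Pbx-Hox motif, spelled TGATTNAT, in 3.22%. The ETS motif searched was GGAAGT (23.8% of all windows). The PAR bZIP motif was TTACGTAA (0.119%), and the GATA motif was AGATAA (11.2%). These motifs do not contain one another. The Meis motif stood at base 253 of the *Mycn* window, at base 165 of a *Mecom* window, and at bases 9 and 43 of an *Erg* window, which also held the GATA motif at base 148. The *Meis1* window held the ETS motif at base 238. No match was found in the windows of *Hlf*, *Hoxa9*, *Hoxb4* and *Prdm16*, which says only that these letters are not in these stretches.

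To compare the members with each other, levels were also taken per kilobase of gene length (FPKM). In yHSCs the order of mean FPKM was *Hlf* (42.5 ± 22.2, SD, n = 3), *Meis1* (36.9 ± 8.27), *Hoxa9* (34.1 ± 8.61) and *Mycn* (29.9 ± 15.2), whose ranges overlapped from neighbour to neighbour, and then *Erg* (8.18 ± 2.76), *Mecom* (6.56 ± 2.44), *Prdm16* (2.64 ± 1.08), *Hoxb5* (1.86 ± 0.585) and *Hoxb4* (0.923 ± 0.639). In that order only *Mycn* and *Erg*, and *Mecom* and *Prdm16*, were neighbours without overlap. In bulk samples, fewer cells of a type and less RNA per cell cannot be told apart, and this holds for every level below. In Selp_high paHSCs *Mycn* was the highest, at 98.1 ± 58.3 FPKM, and its lowest library, at 52.4 FPKM, lay above the highest of *Meis1* (30.5 ± 2.01), which in turn lay above *Hlf* (24.2 ± 3.63). Next came *Hoxa9* (12.2 ± 7.40), *Mecom* (7.45 ± 1.32), *Hoxb5* (5.13 ± 1.40) and *Erg* (4.78 ± 0.488), each overlapping the next, and then *Prdm16* (2.63 ± 0.504) and *Hoxb4* (0.871 ± 0.262), which did not overlap their neighbours. In Selp_low paHSCs the order was *Mycn* (18.4 ± 9.98), *Meis1* (15.9 ± 5.45), *Hlf* (7.83 ± 4.26), *Hoxa9* (7.54 ± 5.48), *Erg* (4.09 ± 1.59), *Mecom* (2.51 ± 1.46), *Hoxb5* (1.75 ± 0.720), *Prdm16* (1.07 ± 0.395) and *Hoxb4* (0.480 ± 0.0419), and only the last neighbours did not overlap. By the mean over 9 libraries, *Mycn* stood at percentile 94.7 of 21970 protein-coding genes, *Meis1* at 90.3, *Hlf* at 89.2 and *Hoxa9* at 85.8, whereas *Hoxb4* stood at 48.8.

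**Figure D1:**
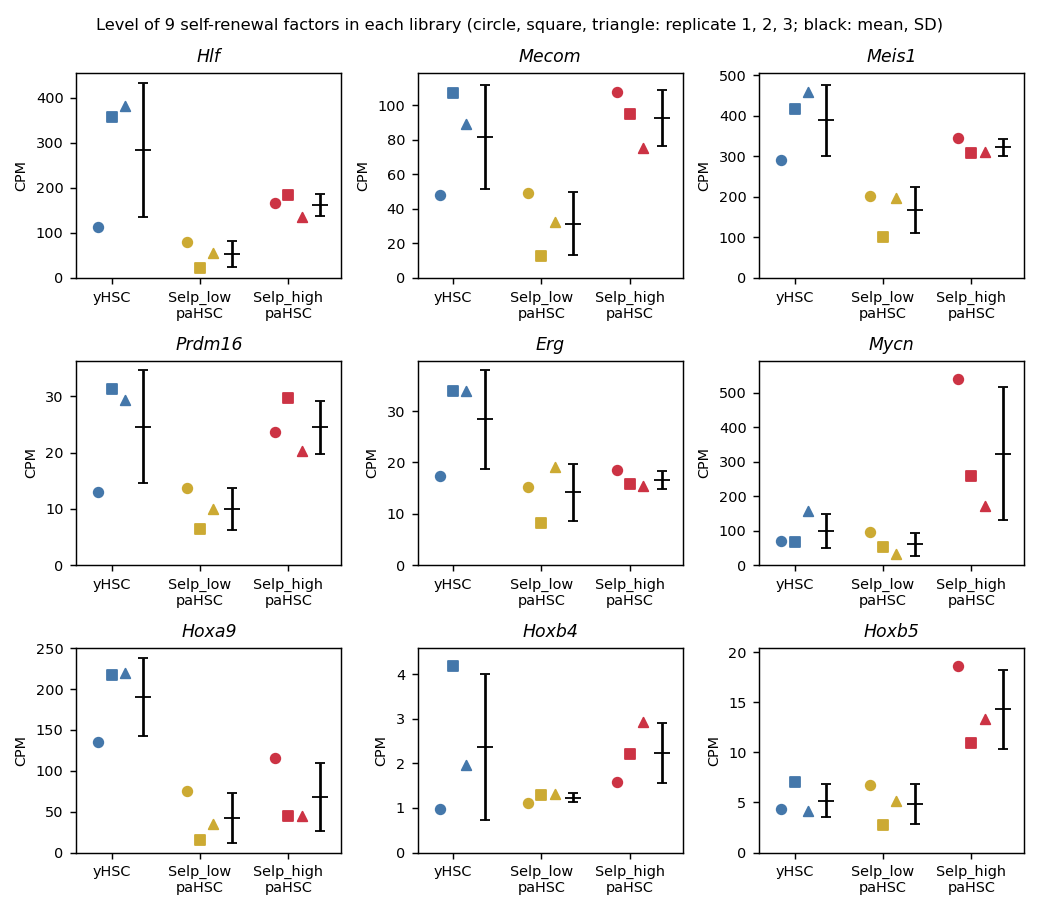
Level of each of the 9 factors in each library, in CPM on a linear axis from 0, with 1 panel per gene and the 3 groups along the x axis. Circles, squares and triangles are replicates 1, 2 and 3, and the black bars are mean and SD (n = 3). The 3 Selp_high libraries of *Mycn* (173 to 539 CPM) and *Hoxb5* (11.0 to 18.6 CPM) sit above all others, while the 3 yHSC libraries of *Hoxa9* (135 to 219.6 CPM) sit above all paHSC libraries.

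Among the homeobox members, *Hoxa9* (ENSMUSG00000038227, chromosome 6 from 52200080 to 52208069, build mm39, minus strand), a homeodomain factor of HSCs and of leukemia, was at 135, 217 and 219.6 CPM in yHSC replicates 1, 2 and 3. It was at 75.7, 15.9 and 34.6 CPM in Selp_low paHSCs and at 116, 44.2 and 44.2 CPM in Selp_high paHSCs. Every yHSC library was above every paHSC library, and the paHSC fractions overlapped. *Hoxb5* (ENSMUSG00000038700, chromosome 11 from 96194162 to 96196947, plus strand), known as a marker of long-term HSCs, showed another pattern, with 4.38, 7.05 and 4.10 CPM in yHSCs, 6.74, 2.76 and 5.14 CPM in Selp_low paHSCs and 18.6, 11.0 and 13.3 CPM in Selp_high paHSCs. All Selp_high libraries were above the other 6, which overlapped. *Hoxb4* (ENSMUSG00000038692, chromosome 11 from 96209093 to 96212464, plus strand), whose forced expression expands HSCs, was the member with the fewest counts, between 20 and 170 per library. It was at 0.974, 4.18 and 1.95 CPM in yHSCs, 1.11, 1.28 and 1.30 CPM in Selp_low paHSCs and 1.57, 2.21 and 2.92 CPM in Selp_high paHSCs. The Selp_high libraries lay just above the Selp_low ones, and the yHSC libraries spanned both.

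*Meis1* (ENSMUSG00000020160, chromosome 11 from 18829817 to 18968985, minus strand), the TALE partner of Hox proteins, was at 291, 416 and 459 CPM in yHSCs, 202, 101 and 198 CPM in Selp_low paHSCs and 346, 308 and 310.2 CPM in Selp_high paHSCs. The Selp_low libraries were the 3 lowest, and the yHSC and Selp_high libraries overlapped. Within Selp_high paHSCs *Meis1* was the member with the smallest spread, the highest library being 1.12 times the lowest.

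Both PR-domain members followed a like order. *Mecom* (ENSMUSG00000027684, chromosome 3 from 30005445 to 30602157, minus strand) was at 48.0, 107 and 89.2 CPM in yHSCs, 49.0, 12.6 and 32.1 CPM in Selp_low paHSCs and 108, 95.0 and 75.0 CPM in Selp_high paHSCs. *Prdm16* (ENSMUSG00000039410, chromosome 4 from 154400582 to 154721330, minus strand) was at 13.0, 31.3 and 29.4 CPM in yHSCs, 13.7, 6.34 and 9.93 CPM in Selp_low paHSCs and 23.6, 29.6 and 20.3 CPM in Selp_high paHSCs. For each gene the Selp_high libraries were above all Selp_low libraries, and yHSC replicate 1 was at the level of Selp_low replicate 1 while the other yHSC libraries were within the Selp_high range or just above it.

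*Hlf* (ENSMUSG00000003949, chromosome 11 from 90227362 to 90281721, minus strand) was at 113, 358 and 381 CPM in yHSCs, 78.7, 22.2 and 56.1 CPM in Selp_low paHSCs and 165, 184 and 136 CPM in Selp_high paHSCs. The Selp_low libraries were the 3 lowest, and yHSC replicate 1 lay under the Selp_high libraries while the other yHSC libraries lay above them. *Erg* (ENSMUSG00000040732, chromosome 16 from 95160028 to 95387452, minus strand) was at 17.3, 33.8 and 33.9 CPM in yHSCs, 15.1, 8.27 and 19.1 CPM in Selp_low paHSCs and 18.5, 15.9 and 15.3 CPM in Selp_high paHSCs. No pair of groups was free of overlap for *Erg*.

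*Mycn* (ENSMUSG00000037169, chromosome 12 from 12986094 to 12991915, minus strand) reached the highest count of any member, 20556. It was at 70.6, 68.6 and 156 CPM in yHSCs, 97.0, 52.3 and 32.9 CPM in Selp_low paHSCs and 539, 258 and 173 CPM in Selp_high paHSCs. The 3 Selp_high libraries were the highest and differed 3.13-fold among themselves, and the yHSC and Selp_low libraries overlapped.

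Selp_high and Selp_low paHSCs, which share the age and differ in surface P-selectin, were compared first. The fitted log2 fold change was above 0 for all 9 factors, which held for 44.8% of all genes tested, and its median over the factors was 1.25 against -0.11 over 20370 genes. *Mycn* had the largest value, followed by *Hlf*, *Mecom*, *Hoxb5* and *Prdm16*. Genes were called where the adjusted p was at most 0.05 and the log2 fold change was at least 1 in size. By edgeR's quasi-likelihood test, 0 of 9 factors were called (percent called over all genes, 0%), with 6 of 9 at an unadjusted p under 0.05 and higher in Selp_high paHSCs (6.88% of all genes). By limma with voom quality weights 0 were called (0% of all genes), and by DESeq2 1 was called (0.728% of genes called higher). For 7 of 9 factors every Selp_high library lay above every Selp_low library, as it did for 11.1% of all genes. With 3 libraries against 3, an exact permutation test cannot give a p below 0.1.

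*Mycn* averaged 323 ± 192 CPM (SD, n = 3) in Selp_high and 60.7 ± 32.9 CPM in Selp_low paHSCs. Its log2 fold change was 2.36 (SE 0.56, adjusted p = 0.338 in edgeR's quasi-likelihood test), and DESeq2 called it, with an adjusted p of 0.0159. That call was lost without Selp_low replicate 2 (DESeq2 adjusted p = 0.168) or without Selp_high replicate 1 (0.0971), while without Selp_low replicate 1 DESeq2 also called *Hlf* (adjusted p = 0.0261) and *Mecom* (0.0309). Without Selp_low replicate 1 DESeq2 called 2.77% of all genes in either direction, against 2.21% with no library left out. *Hlf* averaged 162 ± 24.3 and 52.3 ± 28.5 CPM, a log2 fold change of 1.59 (SE 0.45, adjusted p = 0.338 by edgeR, 0.110 by DESeq2). *Mecom* averaged 92.5 ± 16.4 and 31.2 ± 18.2 CPM, with a log2 fold change of 1.53 (SE 0.47), *Hoxb5* 14.3 ± 3.90 and 4.88 ± 2.01 CPM, with 1.504 (SE 0.44), and *Prdm16* 24.5 ± 4.70 and 9.996 ± 3.69 CPM, with 1.25 (SE 0.37); each had an adjusted p of 0.338 by edgeR. *Meis1* followed at 0.91 (SE 0.32, adjusted p = 0.354 by edgeR). *Hoxb4* at 0.82 (SE 0.56), *Hoxa9* at 0.65 (SE 0.62) and *Erg* at 0.18 (SE 0.37) had adjusted p-values of 0.584, 0.704 and 0.873 by the same test. The value of *Hoxa9* moved to 1.41 without Selp_low replicate 1, 0.28 without Selp_low replicate 2 and 0.0486 without Selp_high replicate 1.

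The labels do not say whether same-numbered libraries of the paHSC fractions share animals or a sort. Their numbers were used as a block only as an alternative. With the number as a block, edgeR still called 0 factors (0.0442% of all genes), whereas DESeq2 called 5, all higher in Selp_high paHSCs (4.19% of genes called higher): *Mycn* (adjusted p = 4.88e-17), *Mecom* (0.000967), *Hlf* (0.000998), *Hoxb5* (0.00139) and *Prdm16* (0.0177). *Meis1* had an adjusted p of 0.0194 in that DESeq2 fit and a log2 fold change of 0.96, under the minimum of 1. Without Selp_low replicate 2 the edgeR log2 fold changes were 2.29 for *Mycn*, 1.25 for *Hlf*, 1.25 for *Hoxb5*, 1.17 for *Mecom* and 1.04 for *Prdm16*, and that of *Erg* turned to -0.05. Without Selp_low replicates 2 and 3 together, which leaves 1 Selp_low library that is assumed to vary like the others, they were 1.74 for *Mycn*, 1.08 for *Hoxb5*, 1.04 for *Hlf*, 0.92 for *Mecom* and 0.84 for *Prdm16*, and that of *Hoxa9* turned to -0.15.

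Against yHSCs, the Selp_high fraction differed by member. *Mycn* and *Hoxb5* were higher, *Hoxa9* was lower, and *Mecom*, *Prdm16*, *Meis1* and *Hoxb4* had fitted values near 0. By edgeR 0 of 9 factors were called (0.165% of all genes), with 2 higher (4.48% of all genes) and 1 lower (3.11%) at an unadjusted p under 0.05. DESeq2 called 2, both higher (1.88% of genes called higher), and limma called 1, lower (0.505% of genes called lower). The libraries did not overlap for 2 higher factors (8.29% of all genes) and 1 lower factor (5.8%). The median log2 fold change of the 9 factors was -0.08, against -0.03 over 20017 genes.

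*Mycn* was at 98.5 ± 50.04 CPM (SD, n = 3) in yHSCs, so that its log2 fold change in Selp_high paHSCs was 1.72 (SE 0.51, adjusted p = 0.383 in edgeR's quasi-likelihood test, 0.0380 by DESeq2). *Hoxb5*, at 5.18 ± 1.63 CPM in yHSCs, had a log2 fold change of 1.46 (SE 0.39, adjusted p = 0.316 by edgeR, 0.0275 by DESeq2). *Hoxa9*, at 191 ± 48.0 CPM in yHSCs and 68.0 ± 41.3 CPM in Selp_high paHSCs, had a log2 fold change of -1.49 (SE 0.44, adjusted p = 0.382 by edgeR, 0.0520 by DESeq2); limma with quality weights gave -2.03 and called it (adjusted p = 0.0147). *Hlf* had -0.80 (SE 0.43, adjusted p = 0.821 by edgeR) and *Erg* -0.77 (SE 0.33, 0.672), and *Meis1* at -0.27, *Mecom* at 0.19, *Prdm16* at 0.01 and *Hoxb4* at -0.08 had adjusted p-values of 0.961 or more by edgeR. The DESeq2 call of *Mycn* was lost without yHSC replicate 1 (adjusted p = 0.0901) or 2 (0.331) or Selp_high replicate 1 (0.256) or 2 (0.0598), and that of *Hoxb5* without yHSC replicate 1 (0.0720) or 3 (0.300) or Selp_high replicate 1 (0.172) or 3 (0.0779). The edgeR value of *Mycn* was 1.13 without Selp_high replicate 1. *Hoxa9* was called by DESeq2 without Selp_high replicate 1, the Selp_high library where it was highest (adjusted p = 3.49e-08), and without yHSC replicate 1 (0.0343). *Hlf* was also called lower by DESeq2 without yHSC replicate 1 (-1.13, adjusted p = 0.00916). In either direction DESeq2 called 2.97% of all genes without Selp_high replicate 1 and 4.71% without yHSC replicate 1. With no library left out it called 2.99%.

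Selp_low paHSCs were compared with the same yHSC libraries, so the comparisons with yHSCs share their control. Of the 9 factors, 8 had a fitted log2 fold change under 0, while 55.1% of all genes had one above 0, and the median of the factors was -1.11 against 0.08 over 20437 genes. *Hlf* and *Hoxa9* had the largest values. By edgeR 0 of 9 were called (0% of all genes), with 5 lower at an unadjusted p under 0.05 (4.17% of all genes). DESeq2 called 2, both lower (0.936% of genes called lower), and limma called 1, lower (0.519%). All Selp_low libraries were under all yHSC libraries for *Hlf*, *Hoxa9* and *Meis1*, which made 3 of 9, against 8.24% of all genes.

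*Hlf* averaged 52.3 ± 28.5 CPM (SD, n = 3) in Selp_low paHSCs and 284 ± 149 CPM in yHSCs, a log2 fold change of -2.32 (SE 0.60, adjusted p = 0.332 in edgeR's quasi-likelihood test, 0.0191 by DESeq2, 0.0497 by limma). *Hoxa9* averaged 42.1 ± 30.6 and 191 ± 48.0 CPM, a log2 fold change of -2.07 (SE 0.56, adjusted p = 0.332 by edgeR, 0.0354 by DESeq2). *Meis1*, at 167 ± 57.4 and 389 ± 87.1 CPM, had -1.11 (SE 0.34, adjusted p = 0.337 by edgeR, 0.182 by DESeq2). *Mecom* at -1.27 (SE 0.51), *Prdm16* at -1.18 (SE 0.43), *Erg* at -0.89 (SE 0.40), *Hoxb4* at -0.80 (SE 0.69) and *Mycn* at -0.59 (SE 0.51) had adjusted p-values from 0.375 to 0.776 by edgeR, and *Hoxb5* was at 0.03 (SE 0.47). The value of *Mycn* moved to -1.10 without Selp_low replicate 1, to -0.37 without Selp_low replicate 3 and to -0.0642 without yHSC replicate 3, and that of *Hoxb4* to -1.23 without yHSC replicate 1 and to -0.19 without yHSC replicate 2. The DESeq2 calls were lost without yHSC replicate 2 (adjusted p = 0.163 for *Hlf*, 0.193 for *Hoxa9*), yHSC replicate 3 (0.342 and 0.374) or Selp_low replicate 2 (0.116 and 0.114). Without Selp_low replicate 2 and yHSC replicate 1 together, edgeR's log2 fold change was -2.38 for *Hlf*, -1.91 for *Hoxa9* and -1.05 for *Meis1*. Without Selp_low replicate 3, *Hlf* at -2.40, *Hoxa9* at -1.98 and *Meis1* at -1.29 were all called by DESeq2, as were 8.43% of all genes. Without yHSC replicate 1, *Prdm16* was called beside *Hlf* and *Hoxa9* (-1.48, adjusted p = 0.0336 by DESeq2), as were 9.14% of all genes. With no library left out, DESeq2 called 2.89% of all genes in either direction.

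**Figure D2:**
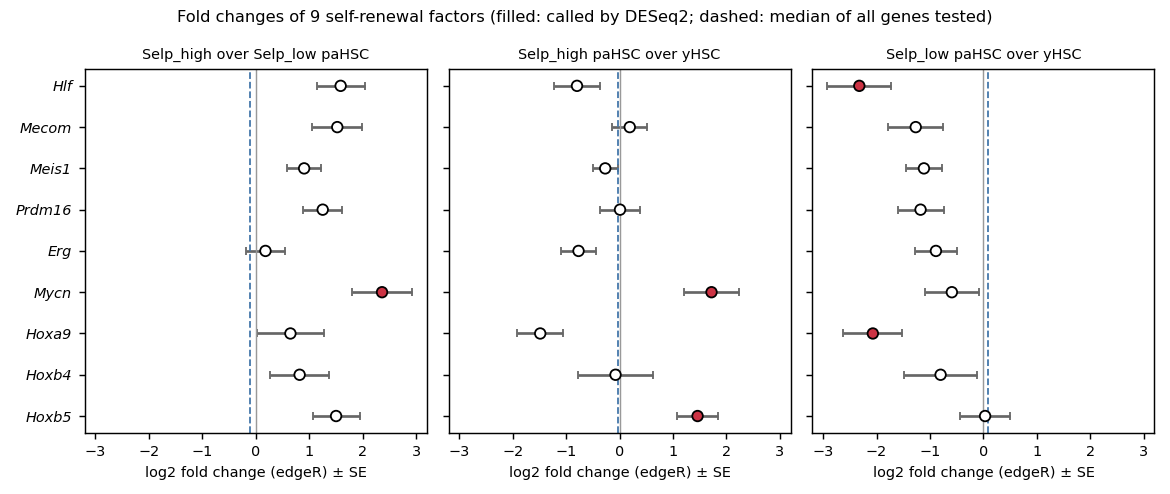
Log2 fold change of each factor in the 3 comparisons, 1 panel each, with edgeR's estimate and SE on the x axis. Filled points were called by DESeq2, and the dashed line is the median of all genes tested. Every point lies right of 0 in Selp_high over Selp_low paHSCs, whereas *Mycn* and *Hoxb5* lie to the right and *Hoxa9* to the left over yHSCs, and 8 of 9 lie left of 0 in Selp_low paHSCs over yHSCs.

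The shape of the profiles over the 9 libraries was then compared by the root-mean-square difference of log2 CPM centred on each gene's mean, as a description. *Meis1* and *Prdm16* were closest among the 9 factors (0.298), followed by *Mecom* and *Prdm16* (0.305) and *Meis1* and *Erg* (0.326). *Mycn* and *Hoxa9* (1.44) and *Hoxa9* and *Hoxb5* (1.36) were farthest apart, although *Hoxa9* and *Hoxb5* are both Hox genes. The 2 protein-coding genes most like each factor, of 15767, were *Mpped2* and *Efna4* for *Hoxa9* (0.195 and 0.308), *Slc6a15* and *Pgap4* for *Hoxb5* (0.211 and 0.261), and *Golga2* and *Zfp770* for *Hoxb4* (0.247 and 0.260). They were *Fam110c* and *Angpt1*, which encodes the Tie2 ligand angiopoietin, for *Meis1* (0.160 and 0.163), *Ttpa* and *Boc* for *Mecom* (0.182 and 0.224), and *Prkag2* and *Atp2b4* for *Prdm16* (0.200 and 0.207). *Hlf* was closest to *Col4a2* and the Wnt receptor gene *Fzd4* (0.217 and 0.274), *Erg* to *Coro7* and *Sde2* (0.191 and 0.216), and *Mycn* to *B3gnt3* and *Clec14a* (0.364 and 0.365), the widest distance of any factor to its nearest gene.

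Ratios of counts within a library do not depend on its depth or scaling. These pairs were chosen after their values were seen and are given without a test. *Hoxb5* had 0.0187 to 0.0325 counts per *Hoxa9* count in yHSCs, 0.0891 to 0.173 in Selp_low paHSCs and 0.161 to 0.301 in Selp_high paHSCs, so both paHSC fractions were above yHSCs. *Mycn* had 0.316 to 0.712 counts per *Hoxa9* count in yHSCs, 0.951 to 3.29 in Selp_low paHSCs and 3.90 to 5.84 in Selp_high paHSCs, and none of these ranges overlapped. For *Mycn* over *Hlf* the ranges were 0.192 to 0.625 in yHSCs, 0.586 to 2.36 in Selp_low paHSCs and 1.27 to 3.27 in Selp_high paHSCs, with overlap between neighbouring groups. *Meis1* over *Hlf* ran from 1.16 to 2.58 in yHSCs, 2.56 to 4.54 in Selp_low paHSCs and 1.67 to 2.28 in Selp_high paHSCs.

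**Figure D3:**
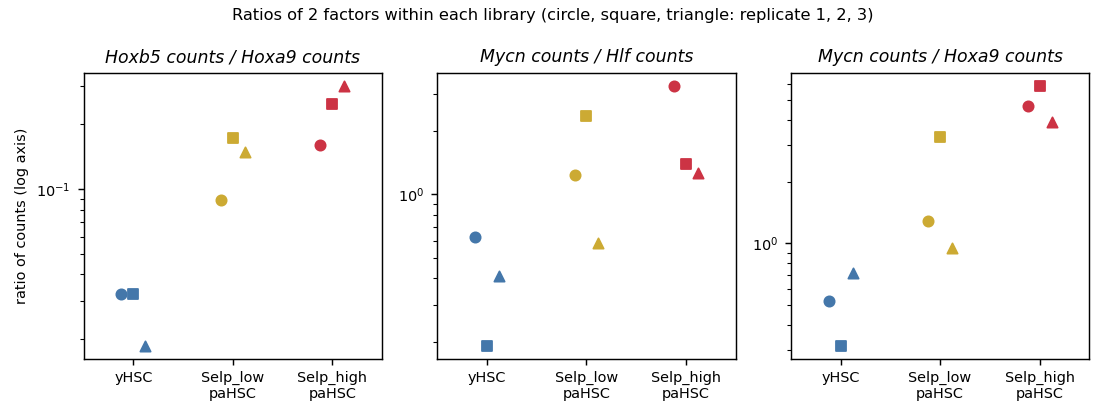
Ratio of the counts of 2 factors within each library, on log axes, for *Hoxb5* over *Hoxa9*, *Mycn* over *Hlf* and *Mycn* over *Hoxa9*. Each point is a library, and circles, squares and triangles are replicates 1, 2 and 3. The yHSC libraries are the 3 lowest for both ratios to *Hoxa9* (at most 0.0325 and 0.712).

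The other genes of the same families were examined from lists chosen by family. Of the 18 other Hox A and B cluster genes, 13 were tested in Selp_high paHSCs over yHSCs. EdgeR called 0 of them (0.165% of all genes), while DESeq2 called 2, both higher (1.88% of genes called higher). Both lie in the Hox B cluster, as *Hoxb5* does. *Hoxb9* was at 0.161 to 0.442 CPM in yHSCs and 3.65 to 6.17 CPM in Selp_high paHSCs, with a log2 fold change of 4.04 (SE 0.72, adjusted p = 0.1204 by edgeR, 3.48e-07 by DESeq2). *Hoxb6*, which lies next to *Hoxb5*, was at 0.197 to 0.990 and 3.73 to 11.2 CPM, with a log2 fold change of 3.37 (SE 0.79, adjusted p = 0.230 by edgeR, 0.000521 by DESeq2). *Hoxb7* had 2.98 (SE 1.26, adjusted p = 0.648 by edgeR). The lowest yHSC levels of *Hoxb9* and *Hoxb6* are near the floor of 3 counts, which equals 0.0851 to 0.121 CPM in yHSCs. In the Hox A cluster, *Hoxa9* included, 7 of 8 tested genes had a value under 0 in Selp_high paHSCs over yHSCs (median -0.48). In the Hox B cluster, *Hoxb4* and *Hoxb5* included, 5 of 8 had one above 0 (median 1.28). Over all genes tested 47.8% had a value above 0, so 5 of 8 is near that share.

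In Selp_low paHSCs over yHSCs, all 8 tested Hox A genes had a value under 0 (median -1.13). DESeq2 called *Hoxa9* and *Hoxa3* lower (0.936% of genes called lower), the latter at -2.52 (SE 0.77, adjusted p = 0.337 by edgeR, 0.0313 by DESeq2). Of the Hox B genes 4 of 6 had a value above 0 (median 0.90), as did 55.1% of all genes, and none was called. *Hoxb6*, at 1.79 to 4.24 CPM in Selp_low paHSCs, was above all yHSC libraries, with a log2 fold change of 2.10 (SE 0.83, adjusted p = 0.412 by edgeR, 0.131 by DESeq2). Between the paHSC fractions, 8 of 8 tested Hox A genes (median 0.64) and 6 of 7 Hox B genes (median 1.30) had values above 0 for Selp_high. Over all genes 44.8% had one above 0, and neither edgeR nor DESeq2 called any of these Hox genes.

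**Figure D4:**
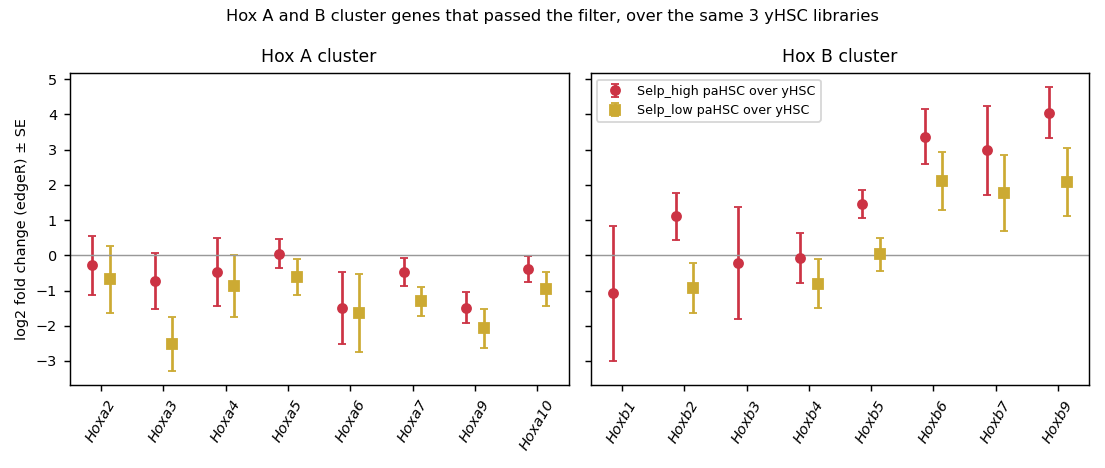
Log2 fold change over the same 3 yHSC libraries, with edgeR's estimate and SE on the y axis, for the genes of the Hox A and Hox B clusters that passed the filter, in order of their numbers. Circles are Selp_high and squares Selp_low paHSCs. Most Hox A values lie under 0 in both fractions, while *Hoxb6*, *Hoxb7* and *Hoxb9* lie above 0 in both.

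Among 8 TALE genes other than *Meis1*, which include the Pbx partners of Hox and Meis proteins, *Pbx3* was called higher by DESeq2 in Selp_high paHSCs over yHSCs. It was at 9.68 to 12.9 CPM in yHSCs and 31.7 to 37.5 CPM in Selp_high paHSCs, with a log2 fold change of 1.64 (SE 0.28, adjusted p = 0.106 by edgeR, 4.54e-06 by DESeq2). No gene of that list was called in the other comparisons, where *Pbx3* had 1.28 between the paHSC fractions and 0.41 in Selp_low paHSCs over yHSCs. Of 12 ETS genes beside *Erg*, DESeq2 called *Ets1* alone, an ETS factor of lymphocytes, lower in Selp_high than in Selp_low paHSCs (-2.47, SE 0.62, adjusted p = 0.338 by edgeR, 0.0120 by DESeq2) and higher in Selp_low paHSCs than in yHSCs (2.33, SE 0.49, 0.332 by edgeR, 0.00736 by DESeq2). Of 10 PRDM and related genes, *Skil*, which encodes a corepressor, was called lower by DESeq2 in Selp_high paHSCs over yHSCs (-2.43, SE 0.78, adjusted p = 0.0323; edgeR 0.445). Further lists held the PAR bZIP relatives of *Hlf* with their antagonist, 3 genes in all, and the 10 genes of the Myc family and Max network. The last list held 7 partners of Erg in the stem cell factor complex. Of these lists edgeR and DESeq2 called 0 genes in each comparison. Among these 7 partners, *Tal1* at 1.26 (SE 0.40) and *Gata2* at 1.15 (SE 0.27) had the largest values between the paHSC fractions, both with an adjusted p of 0.338 by edgeR.

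Markers of other cells moved with the libraries. The summed level of 8 B and plasma cell markers was 163 to 290.4 CPM in yHSCs, 80.5 to 102796 CPM in Selp_low paHSCs and 377 to 3662 CPM in Selp_high paHSCs, with the highest value in Selp_low replicate 2, where *Hlf*, *Mecom*, *Meis1*, *Prdm16*, *Erg*, *Hoxa9* and *Hoxb5* were each at their lowest. The 10 neutrophil markers summed to 206169 CPM in Selp_low replicate 3, 66693 CPM in yHSC replicate 1 and 41783 CPM in Selp_high replicate 3, each the highest of its group, and to 532 to 18543 CPM in the other 6. T and NK cell markers (8) summed to 55.1 to 92.5 CPM in yHSCs, 313 to 907 CPM in Selp_low paHSCs and 130.4 to 156 CPM in Selp_high paHSCs. These sums did not overlap, but their members differed. In Selp_low replicate 3 *Nkg7* was at 599 CPM, and *Cd3d*, *Cd3e*, *Cd3g*, *Trac* and *Cd8a* were at 0 to 1.81 CPM. Between the paHSC fractions 6 of these 8 markers had a log2 fold change under 0 for Selp_high and 2 had one above 0. *Klrb1c* was among the latter, with means of 63.3 CPM in Selp_high and 16.4 CPM in Selp_low paHSCs. Megakaryocyte and platelet markers (8) summed to 112 to 181 CPM in yHSCs, 125 to 1939 CPM in Selp_low paHSCs and 1207 to 7216 CPM in Selp_high paHSCs. In the same order, endothelial markers (8) summed to 101 to 225, 49.3 to 103 and 216 to 425 CPM. Of these, *Tie1* averaged 102, 37.6 and 181 CPM, and *Cdh5* averaged 1.03, 0.739 and 0.895 CPM. Which cells carried the endothelial markers was not tested. Erythroid markers (8) summed to 235 to 2403, 332 to 3057 and 667 to 1129 CPM, and stromal markers (6) to 32.7 to 105, 11.9 to 48.8 and 24.7 to 35.3 CPM. The markers at 0 counts were *Pax5* and *Cd8a* in Selp_high replicate 3, *Cd8a* in Selp_low replicate 3, *Ptprb* in yHSC replicate 2 and *Pdgfra* in Selp_high replicate 1, and no other marker of these lists was at 0 in any library. The part of these cells in the levels of the 9 factors was not tested.

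The 8 SLAM HSC surface markers summed to 982 to 1912 CPM in yHSCs, 793 to 1465 CPM in Selp_low paHSCs and 2119 to 3247 CPM in Selp_high paHSCs, and the 9 factors to 693 to 1375, 222 to 539 and 790.0 to 1336 CPM. Set against this surface sum in each library, *Mycn* was at 10.5 to 16.6% in Selp_high replicates 2 and 1 and 8.15% in replicate 3, and at 4.06 to 6.62% in Selp_low paHSCs, with 3.87 to 8.17% in yHSCs. The paHSC fractions did not overlap on this scale, and yHSCs reached the lowest Selp_high library. *Hlf* was at 11.5 to 20.2% of the surface sum in yHSCs, 1.72 to 7.08% in Selp_low paHSCs and 5.09 to 7.49% in Selp_high paHSCs, and *Hoxa9* at 11.5 to 13.8%, 1.24 to 5.16% and 1.80 to 3.56%, so for both genes yHSCs were above all paHSC libraries and the paHSC fractions overlapped. The same held for *Mecom*, at 4.66 to 6.04%, 0.981 to 4.05% and 3.31 to 3.86%, and for *Prdm16*, at 1.33 to 1.76%, 0.493 to 1.25% and 0.727 to 1.20%. *Erg* and *Meis1* were also higher in every yHSC library (1.76 to 1.91% and 23.4 to 29.7%) than in every Selp_high library (0.570 to 0.724% and 10.7 to 14.6%), while their Selp_low libraries ran from 0.643 to 2.41% and from 7.83 to 24.998%. *Hoxb5* was at 0.214 to 0.446%, 0.214 to 0.649% and 0.446 to 0.628%, with overlap between all groups. *Slamf1*, which encodes CD150 of the sort, and *Ly6a* are among these 8 markers and are named here after their values were seen. *Slamf1* was itself called higher in Selp_high paHSCs over yHSCs by edgeR (log2 fold change 3.25, adjusted p = 0.0498). *Ly6a* was at 631, 855 and 67.3 CPM in Selp_low replicates 1, 2 and 3, whose surface sums were 1465, 1287 and 793 CPM. It was the 1 marker of the 8 with a log2 fold change under 0 in Selp_high over Selp_low paHSCs (-1.11). A high *Ly6a* level lowers every percentage of its library, so the surface sum is not a fixed reference.

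**Figure D5:**
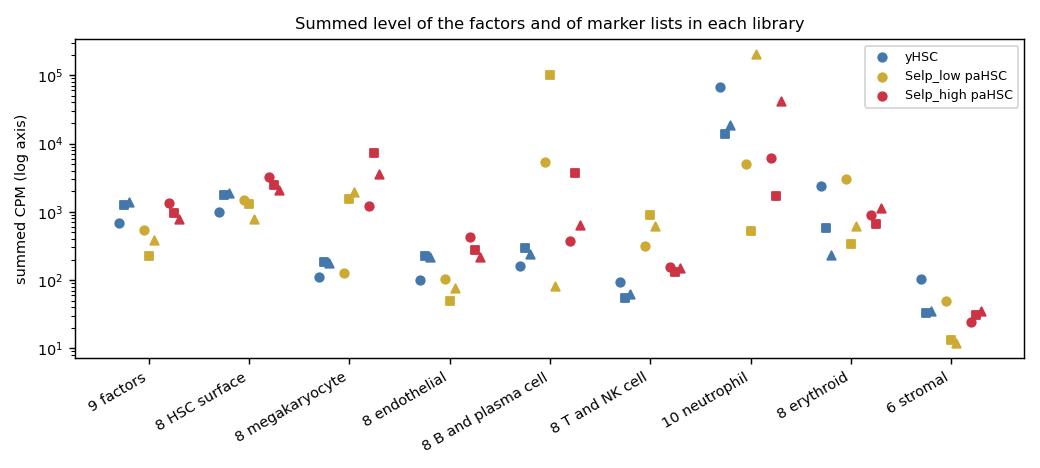
Summed level of the 9 factors and of 8 marker lists in each library, in CPM on a log axis. Colours mark the groups, and circles, squares and triangles are replicates 1, 2 and 3. The B and plasma cell sum of Selp_low replicate 2 (102796 CPM) and the neutrophil sum of Selp_low replicate 3 (206169 CPM) stand above the other libraries.

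Some members share their locus with other genes, and the strand setting of the counting is not given in the sources used here, so reads of overlapping genes could be split or lost. ENSMUSG00000120082, a long noncoding RNA on the strand of *Erg* (chromosome 16 from 95259464 to 95259978), lies within *Erg* and held counts equal to 90.4% of those of *Erg*. Its mean was 23.6 CPM in Selp_high paHSCs, 15.96 CPM in Selp_low paHSCs and 15.4 CPM in yHSCs, an order unlike that of *Erg* itself (16.6, 14.2 and 28.4 CPM). *Hoxb5os*, antisense over *Hoxb5*, held 16.7% of the *Hoxb5* counts, and *Prdm16os*, within 5000 bases of *Prdm16*, held 7.49% of its counts. The genes overlapping *Mecom* and *Meis1*, of which *Gm38197* and *Gm16141* held the most counts, held at most 1.18% and 1.22% of their counts each. *Hlf*, *Mycn* and *Hoxb4* had 0 overlapping genes.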

How the data were processed

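Bulk RNA-seq libraries were made from sorted HSCs with the SMARTer Ultra Low RNA and TruePrep kits, as the methods describe. The authors trimmed reads with fastp, aligned them with HISAT2 2.2.1, counted them per gene with featureCounts 2.0.6 and deposited raw counts, which are used here. The submitters' processing notes name build mm39. The annotation release and the strand and multimapping settings were not given in the sources used here. Every column of counts was matched to a library by its label.

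Counts were tested in R 4.3.3 with edgeR 4.0.16 (filterByExpr, TMM, quasi-likelihood test with the legacy setting, Benjamini-Hochberg adjustment over all genes tested), fitting each pair of groups alone. Genes were called at an adjusted p of at most 0.05 and a log2 fold change of 1 or more in size. FPKM is TMM-scaled CPM per 1000 bases of the deposited gene length, and log2 CPM used a prior count of 2. Each library held 24866975 to 35375310 counts, so that 3 counts, the floor, equal 0.0848 to 0.121 CPM, which covers counting error only. Alternatives were DESeq2 1.42.0, limma 3.58.1 (voom with quality weights), RLE and upper-quartile factors, no filter, a filter at a mean of 10 counts, no legacy setting, all 9 libraries in 1 fit, a replicate block, leaving out each library, and, chosen after seeing the data, leaving out 2 libraries. Python 3.11.15 and matplotlib 3.10.9 made the figures, and the scripts were tested on simulated data. The named genes were all members, *Selp*, of each family at most the 3 genes with the largest change and any called, overlapping genes and genes within 5000 bases above 1 FPKM, and the 2 protein-coding genes most like each member with a log2 range of at least 2. Some genes of these lists are not reported here by name. The members and lists were chosen with earlier results of these data known.

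Replicate numbers come from the sample labels. Same-numbered libraries of the paHSC fractions deviated together from their group means (r = 0.177, 0.277 and 0.302 over 22594 genes, all above 0.1). Differently numbered libraries of these fractions gave -0.244 to 0.0239, and the numbers were used as a block. Against yHSCs the same check gave -0.421 to 0.0908. Differently numbered Selp_high and yHSC libraries, from mice of different ages, gave -0.0665 to 0.454. An r above 0.1 thus does not by itself show that libraries are paired.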

Additional observations from a re-analysis of the deposited data

How the results depend on the processing

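By edgeR's quasi-likelihood test 0 of the 9 factors were called in each comparison, and this count stayed at 0 with RLE or upper-quartile factors, a mean of at least 10 counts, no legacy setting, all 9 libraries in 1 fit, each library left out and 2 libraries left out. Without a filter on low counts edgeR called 1 factor between the paHSC fractions, 2 in Selp_high paHSCs over yHSCs and 2 in Selp_low paHSCs over yHSCs. DESeq2 called 1, 2 and 2, and limma 0, 1 and 1, in the same order. With each library left out, DESeq2 called 0 to 3, 1 to 2 and 0 to 3. Its share of calls over all genes then ran from 0.442% to 8.58%, 1.74% to 4.71% and 0.648% to 9.14%. With the replicate block, a pairing that the labels do not give, DESeq2 called 5 factors between the paHSC fractions. EdgeR called 0 with that block, with *Mycn* at an adjusted p of 0.0578. The yHSC libraries share only a number with the others, and with the block DESeq2 called 2 and 2 factors there and edgeR 0. Of 621 alternatives of the 27 log2 fold changes of single factors, 546 kept direction and side of the threshold. A further 42 passed the threshold and 33 changed sign, and the cause was not tested. No alternative could fall below the threshold, because the main test called 0 of the 9 factors in each comparison. Between the paHSC fractions, *Erg* ranged from -0.0522 to 0.47 with a library left out (-0.0853 by DESeq2 without Selp_low replicate 2), and *Hoxa9* was -0.15 without Selp_low replicates 2 and 3. In Selp_high paHSCs over yHSCs, *Hoxb4* was 0.0382 by limma, 0.12 with the replicate block, 0.10 with it in DESeq2, 0.81 without yHSC replicate 2 and Selp_high replicate 1, and -0.43 to 0.61 with a library left out (0.60 by DESeq2). *Mecom* was -0.0818 by limma and -0.0612 to 0.437 with a library left out (-0.0340 by DESeq2 without yHSC replicate 1), and *Prdm16* was -0.28 by limma and -0.28 to 0.22 with a library left out (-0.25 and -0.16 by DESeq2). In Selp_low paHSCs over yHSCs, *Hoxb5* was -0.0019 with RLE factors, -0.0415 without a filter, -0.0162 by DESeq2, -0.0120 in 1 fit of all libraries, -0.0098 with the replicate block, -0.0459 with it in DESeq2, and -0.28 to 0.27 with a library left out (by DESeq2 -0.0766 and -0.19 without yHSC replicates 1 and 3, -0.31 and -0.0526 without Selp_low replicates 1 and 3). With TPM *Mecom* ranked 5 and *Erg* 6 by mean level.

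Over all genes edgeR called 0, 33 and 0 in the same order of comparisons, with 2555, 1519 and 2306 at an unadjusted p under 0.05. It called 193, 472 and 365 without a filter, 9, 0 and 0 with the replicate block, and in Selp_high paHSCs over yHSCs 92 without the legacy setting, 19 in 1 fit of all libraries, and 0 without yHSC replicate 2 or 3 or Selp_high replicate 2 or 3. Without Selp_low replicate 3 it called 50 and 118, and 14 without Selp_low replicates 2 and 3. DESeq2 called 582, 605 and 519 (2134, 640 and 415 with the block), and limma 0, 275 and 431. Depth limits *Hoxb4* most, with as few as 20 counts in a library.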
